A study of Arabidopsis thaliana with 27 samples.

Results

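The genes of the mitochondrial genome were followed in whole Arabidopsis thaliana seedlings moved to a higher temperature. Every row of the deposited tables with an identifier beginning ATMG was taken, which gave 146 rows of 33557. Of the 146, 59 carried a gene name: 14 rows of complex I, 1 of complex III, 3 of complex IV, 5 of complex V, 5 of cytochrome c maturation, 7 ribosomal proteins, 3 rRNAs, 19 tRNAs and 2 others (matR and mttB). The remaining 87 rows had no name here and are treated as open reading frames and unnamed rows. A count was present for 138 rows in at least 1 of the 27 libraries, and 8 rows had none. Having no count does not mean having no RNA. Of the 8, ATMG01000 and ATMG00050 overlap other rows and reached 78.8 and 16.9 in deposited TPM, a level corrected for length. The rows ATMG00310, ATMG00320, ATMG00870 and ATMG00880 reached lower TPM, and ATMG00800 and ATMG01070 had a TPM of 0.

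All seedlings were Col0 wild type, and RNA came from whole ground seedlings. In the 17-to-27 experiment 10-day-old seedlings raised under long days at 17 °C stayed there or were moved to 27 °C early in the light period, with 2 libraries per temperature at 15 min, 1 h and 4 h and 1 library at 0 min. In the 17-to-37 experiment the same move went to 37 °C, and in the 22-to-27 experiment seedlings went from 22 °C to 27 °C, each with 1 library per temperature and time and 1 at 0 min. How the 22 °C seedlings were raised is not given in the sources used here. No label tells whether duplicate libraries are of separate cultures, and p-values therefore measure the spread between libraries, which may be technical.

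The plant mitochondrial genome encodes a small share of the organelle's proteins: core subunits of the respiratory chain, part of the ATP synthase, proteins that attach haem to cytochrome c, some ribosomal proteins, the rRNAs and a set of tRNAs. Most other mitochondrial proteins come from nuclear genes. The libraries were made with kits that select polyadenylated RNA. In plant mitochondria a poly(A) tail is known mainly as a mark for RNA decay, and mature transcripts mostly lack one, so the counts describe the captured fraction of mitochondrial RNA and not its whole amount. Col-0 also carries a large insertion of mitochondrial DNA in chromosome 2, whose rows can share reads with the rows described here.

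Counts on the 146 rows were few. Libraries held 5.79 to 30.74 M counts, of which 0.0143% to 0.571% lay on mitochondrial rows (median 0.0288%). Over all libraries the rows summed to 398758 counts, and the 3 rRNAs took 78.8% of them. The large rRNA rrn26 (ATMG00020; mitochondrion, 8848 to 11415, TAIR10) held 188352 counts and the small rRNA rrn18 (ATMG01390; 361350 to 363284) held 125064.

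Some libraries stood apart before any temperature effect. In the 17-to-27 experiment the libraries numbered 1 at 1 h held 0.551% mitochondrial counts at 17 °C and 0.571% at 27 °C, against 0.0178% and 0.0160% in those numbered 2. At 15 min those numbered 1 held 0.109% and 0.114%, against 0.0218% and 0.0166%. Chloroplast counts stood apart in the same libraries, at 5.43% and 6.45% of all counts at 1 h. Labels name 2 library kits and 2 sequencing centres without saying which library had which, and their part in these differences was not tested. Shoot markers were high in all 27 libraries (RBCS1A, AT1G67090, at 3300 TPM or more) and the root markers were present in all, with the root hair gene EXPA7 (AT1G12560) between 1.40 and 44.1 TPM.

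**Figure D1:**
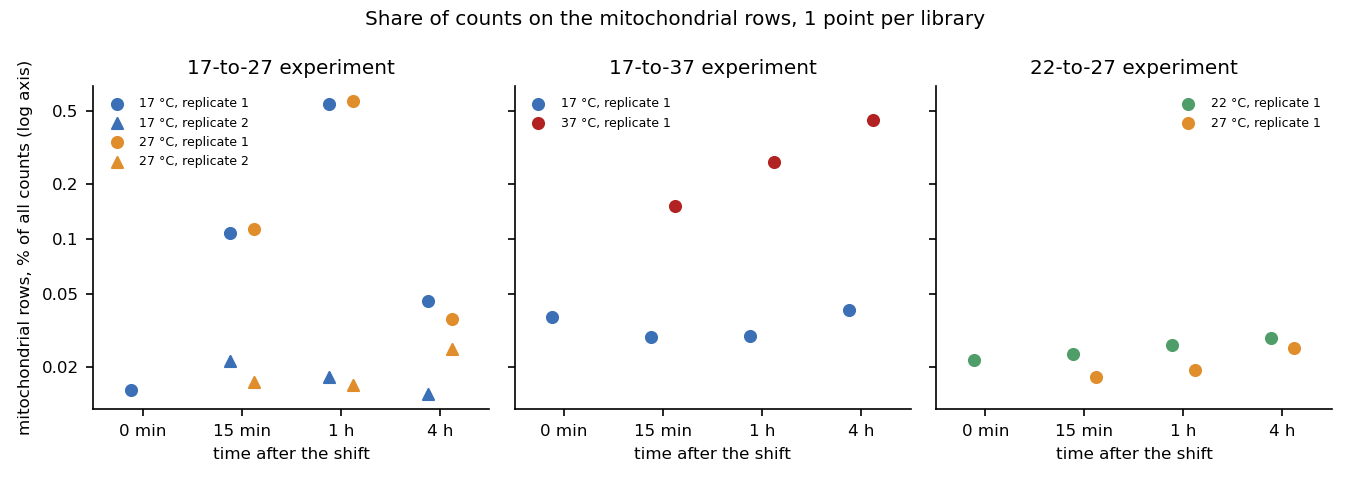
Share of all counts on the 146 mitochondrial rows (log axis, percent) against time in each experiment, 1 point per library, coloured by temperature with circles for replicate 1 and triangles for replicate 2. The 3 libraries at 37 °C sit between 0.152% and 0.448%, above their 17 °C controls, and the 1 h libraries numbered 1 of the 17-to-27 experiment stand at 0.551% and 0.571% at both temperatures.

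At 37 °C the mitochondrial share rose at every time. It was 0.152% at 15 min, 0.265% at 1 h and 0.448% at 4 h, against 0.0292%, 0.0299% and 0.0412% in the 17 °C libraries of the same times and 0.0379% at 0 min. The control values behind these shares were 6573, 5507, 6301 and 6195 counts. The 3 libraries at 37 °C were all above the 4 controls. In whole seedlings more organelles or cells, more RNA per cell and a larger captured fraction of that RNA cannot be told apart.

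Chloroplast counts did not move on the same scale. They made up 0.581%, 0.492% and 0.675% of all counts at 37 °C, against 0.372%, 0.336% and 0.506% at 17 °C. The ratio of mitochondrial to chloroplast counts lay between 0.0566 and 0.102 in all 24 libraries not at 37 °C, the chloroplast-rich ones included. At 37 °C it was 0.262, 0.538 and 0.664. The 2 ranges did not overlap.

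The makeup of the mitochondrial counts also differed at 37 °C. Rows other than rRNA made up 40.6%, 36.7% and 31.9% of mitochondrial counts there, against 10.3% to 12.8% in the 4 libraries kept at 17 °C in that experiment and 10.1% to 23.9% in all 24 libraries at other temperatures. The 17 °C library numbered 1 at 1 h, whose mitochondrial share of 0.551% was above that of the 4 h library at 37 °C, had 12.1% of its mitochondrial counts outside the rRNAs. The number of rows with a count was 133, 131 and 136 of 146 at 37 °C, 61 to 71 in their controls and 106 in that 17 °C library.

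**Figure D2:**
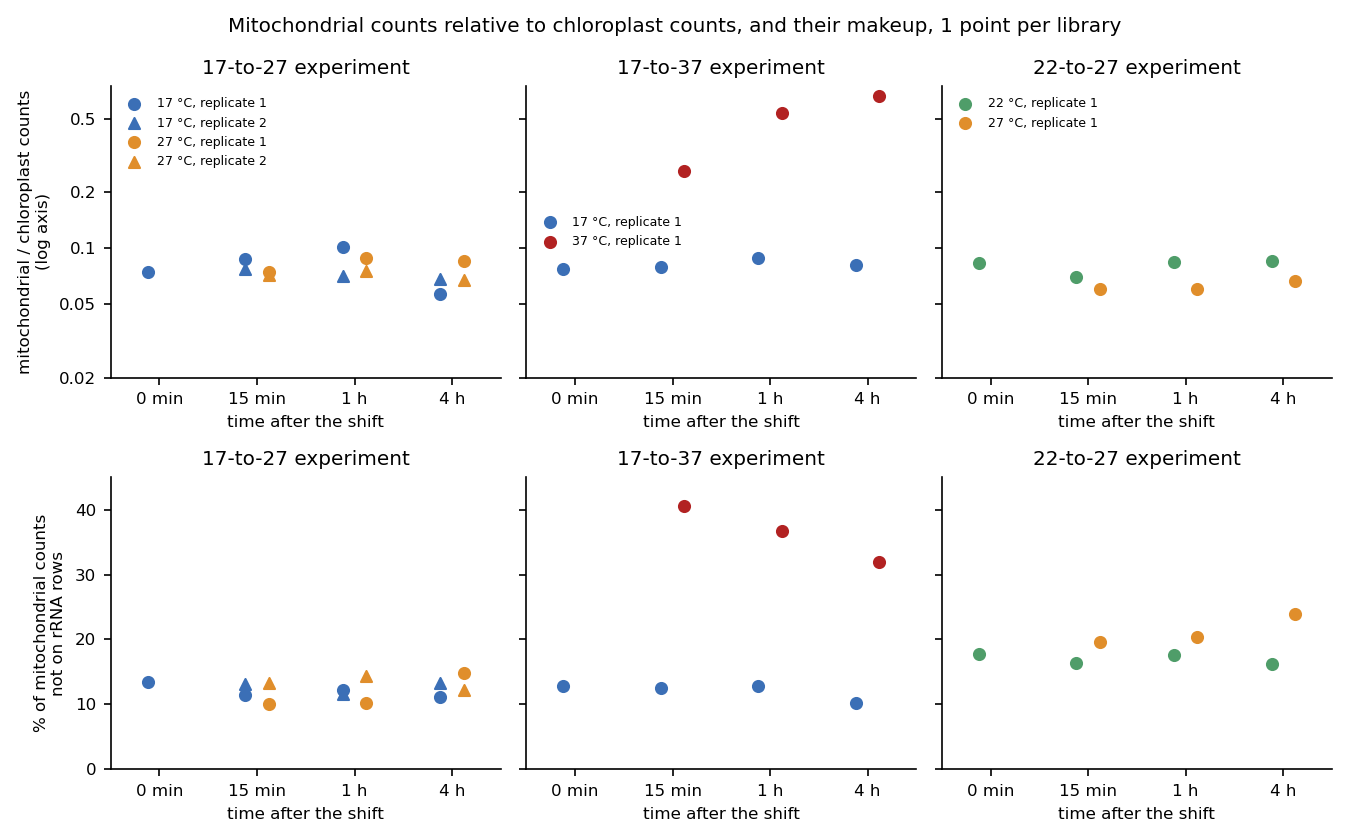
Mitochondrial over chloroplast counts (upper row, log axis) and the percent of mitochondrial counts outside the 3 rRNAs (lower row) against time in each experiment, 1 point per library. Libraries at 37 °C stand apart in both, with ratios of 0.262 to 0.664 and 31.9% to 40.6%, while the 1 h libraries numbered 1 of the 17-to-27 experiment lie among the others.

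Each row was then compared between 37 °C and 17 °C. Of the 146 rows, 127 had all 3 libraries at 37 °C above all 3 controls in CPM (a row's counts divided by the library's total in M counts), and 0 had all 3 below. Among all rows of the tables with a count, 8.4% lay above in this way. A row could differ through controls at or near 0, so rows with at least 10 control counts over the 3 times were read separately: there were 36, all over 2-fold higher, with ratios of pooled CPM from 5.37 to 170. Of all 21867 rows with at least 10 control counts, 3.68% were over 2-fold higher. The median ratio of these 21867 rows was 0.766 (-0.38 on the log2 scale), so CPM set the typical gene below 1, while the fold changes of the test are centred on 0.00.

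Among the rRNAs rrn26 rose least in proportion. It held 3804, 3189 and 3741 counts at 17 °C and 9617, 14894 and 33230 at 37 °C (15 min, 1 h and 4 h). The small rRNA rrn18 went from 1942, 1596 and 1905 to 8859, 11438 and 27466 counts. The 5S rRNA rrn5 (ATMG01380; 361062 to 361179) went from 7, 15 and 9 to 171, 163 and 199 counts. No library at 37 °C overlapped a control for any of the 3, and the log2 fold changes were 2.59 ± 0.32 (SE, adjusted p = 0.0111) for rrn26, 3.31 ± 0.29 (adjusted p = 0.0046) for rrn18 and 4.46 ± 0.29 (adjusted p = 0.00163) for rrn5.

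The unnamed row ATMG00030 (11918 to 12241) starts 503 bases after the end of rrn26 and held 331, 299 and 326 counts at 17 °C. At 37 °C it held 1110, 1437 and 2994 counts, a log2 fold change of 2.75 ± 0.25 (adjusted p = 0.00461). Both rrn26 and ATMG00030 were among the 5 lowest changes of the members tested, and ATMG00030 alone held 956 of the 1297 control counts of its class.

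Complex I, the NADH dehydrogenase at the entry of the respiratory chain, is encoded here by 9 genes in 14 rows, since nad1, nad2 and nad5 are assembled by trans-splicing from parts with rows of their own. The 14 rows summed to 75, 64 and 47 counts at 17 °C and to 851, 1556 and 3483 at 37 °C. All 14 lay above their controls at every time. The class stood 12.4-fold higher at 15 min, 28.4-fold at 1 h and 56.8-fold at 4 h.

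Within complex I, nad7 went from 9, 6 and 8 to 69, 133 and 272 counts (log2 fold change 4.50 ± 0.44). The row of nad9 went from 15, 10 and 8 to 117, 146 and 351 counts (4.38 ± 0.45, adjusted p = 0.00663). The nad5 row ATMG00060, the most abundant per length of its class over the 27 libraries, went from 14, 7 and 5 to 88, 229 and 565 counts (5.06 ± 0.74). These 3 rows did not overlap their controls at any time. For nad7 and ATMG00060 only 1 control library was over the filter on low counts (0.521 CPM), so their p-values are not given. The largest ratio of the class came from nad6 (ATMG00270; 76642 to 77259), with 4 control counts against 832, a ratio of 208. Among the parts of trans-spliced genes, the 3 nad1 rows held 9, 13 and 3 control counts (ATMG00516, ATMG01120 and ATMG01275) against 169, 589 and 130 at 37 °C. The lowest of these rows in proportion was ATMG00516, at 18.7-fold, and ATMG01120 stood 45.2-fold higher. The antiporter-like subunit nad4 had 3, 7 and 3 control counts against 48, 62 and 287, and nad4L had 9, 7 and 4 against 87, 183 and 348.

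Complex III has 1 mitochondrial gene, cob, which encodes cytochrome b. It held 7, 3 and 8 counts at 17 °C and 52, 42 and 144 at 37 °C, a log2 fold change of 3.90 ± 0.36. Its pooled ratio of 13.2 was the lowest among the respiratory rows. Only 1 control library of cob was over the filter, so its p-value is not given.

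The catalytic subunits of complex IV, cytochrome c oxidase, rose. The cox1 row (ATMG01360; 349830 to 351413) went from 25, 35 and 27 to 371, 683 and 1797 counts (log2 fold change 5.11 ± 0.39, adjusted p = 0.00337). The cox2 row went from 8, 17 and 12 to 307, 384 and 781 counts (5.57 ± 0.25, adjusted p = 6.95e-04). The cox3 row went from 17, 15 and 3 to 113, 147 and 369 counts (4.33 ± 0.69, adjusted p = 0.02). The libraries of the 2 temperatures did not overlap for any of the 3, and as a class they stood 17.3-fold, 21.2-fold and 53.8-fold higher from 15 min to 4 h.

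In complex V, the ATP synthase, atp1 (ATMG01190; 302166 to 303689), the alpha subunit, went from 49, 54 and 39 to 1150, 1445 and 2882 counts (log2 fold change 5.50 ± 0.30, adjusted p = 0.00119). The ring subunit atp9 went from 30, 34 and 26 to 381, 420 and 911 counts (4.47 ± 0.27, adjusted p = 0.00149). The named atp6 row (ATMG00410) went from 14, 11 and 4 to 258, 244 and 473 counts (5.34 ± 0.44, adjusted p = 0.0039). These 3 rows rose without overlap at any time. With 12 control counts atp8 reached 802 at 37 °C, and with 18 control counts atp4 reached 392. The 5 rows together stood 21.7-fold, 25.6-fold and 48.0-fold higher at 15 min, 1 h and 4 h.

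Genes of cytochrome c maturation, the system that attaches haem to c-type cytochromes, had 14, 8 and 8 control counts in all over 5 rows. At 37 °C they had 522, 508 and 848. The ABC transporter subunit ccmB (ATMG00110; 30463 to 31083) went from 6, 3 and 2 to 242, 149 and 203 counts, a ratio of 53.9. None of its controls was over the filter on low counts (0.521 CPM), so its test is not given. For ccmC the 3 controls held 0 counts against 113, at least 37.6-fold higher against a floor of 3 counts over the group. For ccmFN1 the control was 1 count against 151, a ratio of 151 with an exact 95% interval of 26.6 to 5987, and for ccmFN2 3 against 314, a ratio of 104 with an interval of 35.4 to 509. The widths of these intervals come from counting error alone, and reads copied by PCR are not independent molecules.

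The 7 ribosomal protein rows summed to 55, 36 and 44 counts at 17 °C and 1051, 1945 and 4074 at 37 °C, which was 20.9-fold, 63.1-fold and 71.0-fold higher. The row of rps3 (ATMG00090; 25482 to 28733), which overlaps rpl16 by 134 bases, held 22, 26 and 21 of the control counts and 553, 1016 and 2242 of those at 37 °C (log2 fold change 5.92 ± 0.37, adjusted p = 0.00185). The rpl16 row went from 15, 2 and 7 to 181, 415 and 748 counts (log2 fold change 5.94 ± 0.74). The rpl2 row went from 12, 3 and 6 to 131, 194 and 463 counts (5.38 ± 0.58). For rpl16 and rpl2 only 1 control library each was over the filter, so their p-values are not given. The rps4 row had 1, 0 and 4 control counts against 79, 136 and 277, a ratio of 98.1, and no control library over the filter of the test. The other small rows were rpl5 with 6 control counts against 216, rps12 with 7 against 328 and rps7 with 3 against 91. The ratio of rps7 was 30.2 with an exact interval of 10.0 to 149. No row of the class overlapped its controls.

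The matR row, which encodes an intron maturase and lies within the first row of nad1 (ATMG00516), went from 18, 16 and 11 to 182, 234 and 460 counts (log2 fold change 4.50 ± 0.37, adjusted p = 0.00359). How reads in the shared bases were assigned is not known, and in all 23 rows fell in 12 overlapping pairs. The transporter gene mttB had 3 control counts and 89 at 37 °C, a ratio of 29.6 with an exact interval of 9.80 to 146.

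The unnamed rows held the most extreme members. Without ATMG00030 the other 86 rows had 160, 102 and 79 control counts and 6044, 5952 and 8595 at 37 °C, a pooled ratio of 60.2. The row ATMG00690 (203588 to 204310) went from 14, 10 and 8 to 1795, 1814 and 1833 counts, and its libraries lay far apart by temperature, with a ratio of 170 and a log2 fold change of 7.75 ± 0.20 (adjusted p = 1.82e-04). In the 17 °C libraries of the same times it was 1.24% to 1.71% of the counts outside the rRNAs, in the 17 °C library numbered 1 at 1 h of the other experiment 0.581%, and at 37 °C 14.1%, 11.8% and 6.43%.

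Other unnamed rows with measurable controls also rose. The row ATMG01200 went from 14, 13 and 13 to 321, 383 and 859 counts (log2 fold change 5.49 ± 0.27, adjusted p = 8.86e-04). The row ATMG00660 went from 27, 20 and 13 to 269, 324 and 589 counts (4.56 ± 0.38, adjusted p = 0.0039). Neither overlapped its controls. The least changed unnamed row after ATMG00030 was ATMG01330, which shares 384 bases with a nad2 row, with 9, 3 and 3 control counts against 36, 29 and 36, a ratio of 6.72. Its controls too were all under the filter.

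The 5 largest fitted changes were all unnamed rows with 0 or 1 control count, whose fold is set by that floor. The row ATMG00630 (183111 to 183443) had 0 control counts against 355, 290 and 324, at least 322-fold higher. The row ATMG00170 (48113 to 48532) had 1 control count against 243, 191 and 196, a ratio of 628 with an exact interval of 112 to 24860. With 0 control counts each, ATMG00820 reached 134 (at least 44.5-fold), ATMG00130 reached 122 (at least 40.6-fold) and ATMG00440 reached 117 (at least 38.9-fold).

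The low values of ATMG00630 and ATMG00170 were also seen in a 17 °C library with far more mitochondrial counts. In the 17 °C library numbered 1 at 1 h, with 6367 counts outside the rRNAs, each of these rows held 0.0157% of them, which is 1 count. At 37 °C and 15 min, with 12745 such counts, ATMG00630 held 2.79% and ATMG00170 held 1.91%. Among other rows atp1 held nearly the same share in these 2 libraries, 9.14% and 9.02%. Shares differed for cox1 (6.58% and 2.91%), cob (3.16% and 0.408%) and ATMG00030 (32.5% and 8.71%).

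The 19 tRNA rows were nearly empty, with 9 control counts and 158 at 37 °C in all. Of the 19, 12 had all 3 libraries at 37 °C above all 3 controls, as did 8.4% of all rows with a count. In 13 of the 19 the controls held 0 counts, where 1 count in each library at 37 °C is enough to lie above. All 19 rows had a median TPM of 0 over the 27 libraries, so none led its class by that measure. The row of trnK (ATMG00100) had 1 control count against 20, a ratio of 20 with an exact interval of 3.19 to 827. Mature tRNAs are short, at 62 to 111 bases a row.

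**Figure D3:**
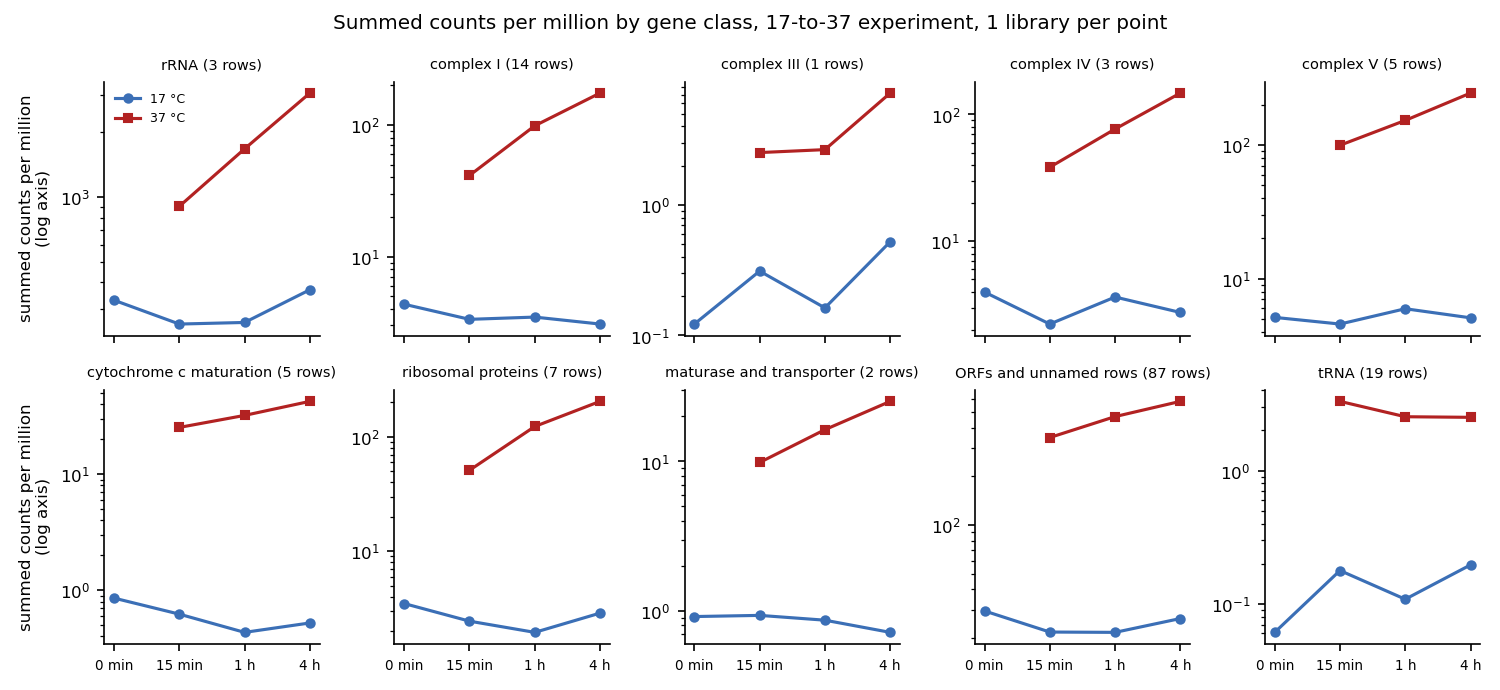
Summed CPM of each gene class (log axis) against time in the 17-to-37 experiment, blue circles for 17 °C and red squares for 37 °C, 1 library per point. All 10 classes lie higher at 37 °C than in the 4 controls at each time, and complex I, complex IV and ribosomal proteins climb most from 15 min to 4 h.

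**Figure D4:**
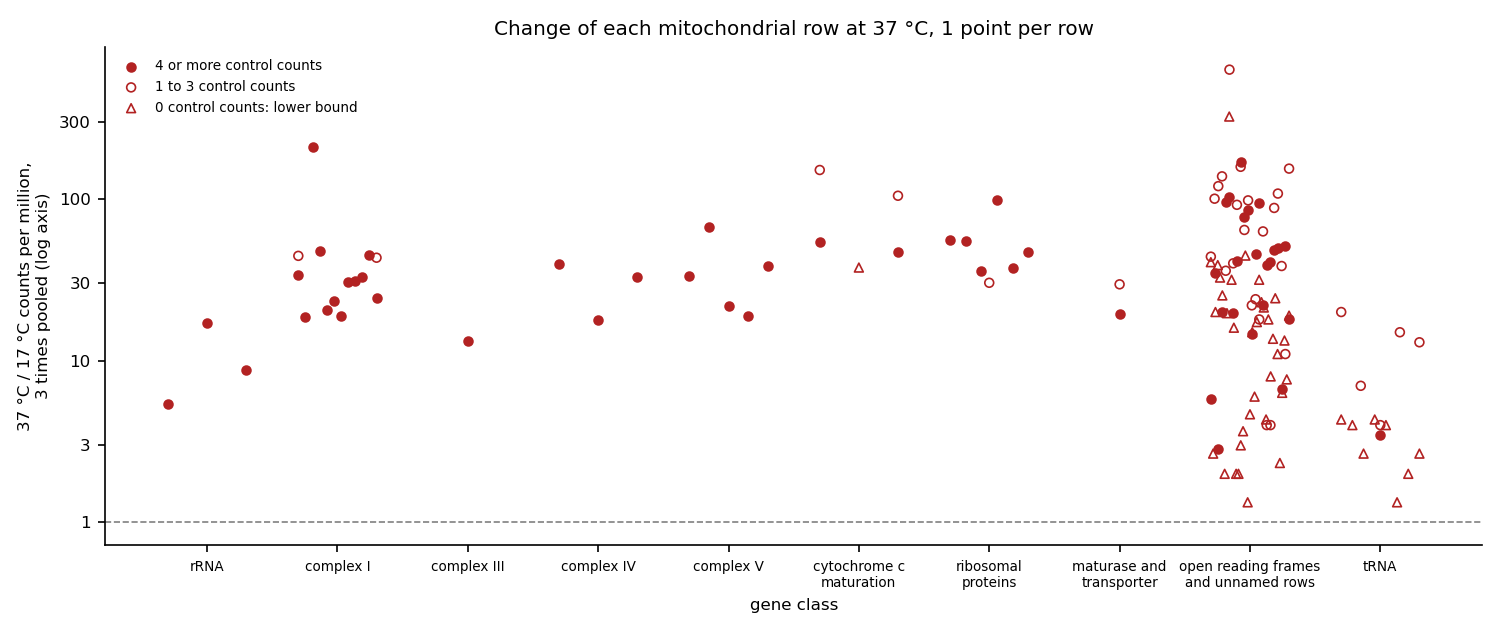
Ratio of pooled CPM at 37 °C to that at 17 °C (log axis) for each mitochondrial row with more than 3 counts at 37 °C, by class. Filled circles have 4 or more control counts, open circles 1 to 3, and triangles are lower bounds for rows with 0 control counts. The rRNAs rrn26 and rrn18 lie at 5.37 and 8.75, below every respiratory row.

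Tests of these rows used edgeR across all genes. The fit kept 98 of the 146 rows and 48 were not tested, tRNAs among them. Of the 98, 75 had no control library over the filter on low counts and so could pass only by being high at 37 °C. Their count is no support. The other 23 had at least 1 control library over the filter, and of them 23 were higher and 0 lower at an adjusted p under 0.05. For nad7, the nad5 row ATMG00060, cob, rpl2, rpl16 and ATMG00670 only 1 of the 3 controls was over it. The controls of cob lay at 0.311, 0.163 and 0.523 CPM. The filter asked for more than 1 library, so these rows entered the fit through their level at 37 °C. Their calls are no support. Of all 21077 genes tested, 9.91% were called higher and 11.3% lower. The design has 1 library per temperature and time, so the 3 times stand in for replicates with 2 residual degrees of freedom. Without the 1 h libraries 39 of the members passed, and without 15 min or 4 h 98 and 95 did. These counts include rows without a control library over the filter and so are no support either. Leaving out a time also leaves fewer residual degrees of freedom.

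The classes differed in their course at 37 °C, which rests on 1 library per time and was not tested. Among the 69 rows with at least 100 counts at 37 °C, the 4 h library stood above the 15 min library in 64, with a median ratio of 2.59 in CPM and a range from 0.833 to 6.91. Rows of complex I climbed furthest, with nad6 at 6.91 (75, 255 and 502 counts), the nad5 row ATMG00060 at 6.63 and nad4 at 6.17. In complex IV cox1 climbed 5.0-fold, and among the ribosomal proteins rpl5, rpl16 and rps3 climbed 4.56-fold, 4.27-fold and 4.18-fold. The rRNAs rrn26 and rrn18 climbed 3.57-fold and 3.2-fold.

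Other rows were at their level by 15 min. The ratio of 4 h to 15 min was 1.05 for ATMG00690, 0.942 for ATMG00630, 0.833 for ATMG00170, 0.866 for ccmB and 1.20 for rrn5. Of the 69 rows, 51 rose over 1.5-fold between these times and 5 fell below 1. Those 5 were ccmB and the unnamed rows ATMG00170, ATMG00370, ATMG00130 and ATMG00630. They were named for this pattern after their values were seen.

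**Figure D5:**
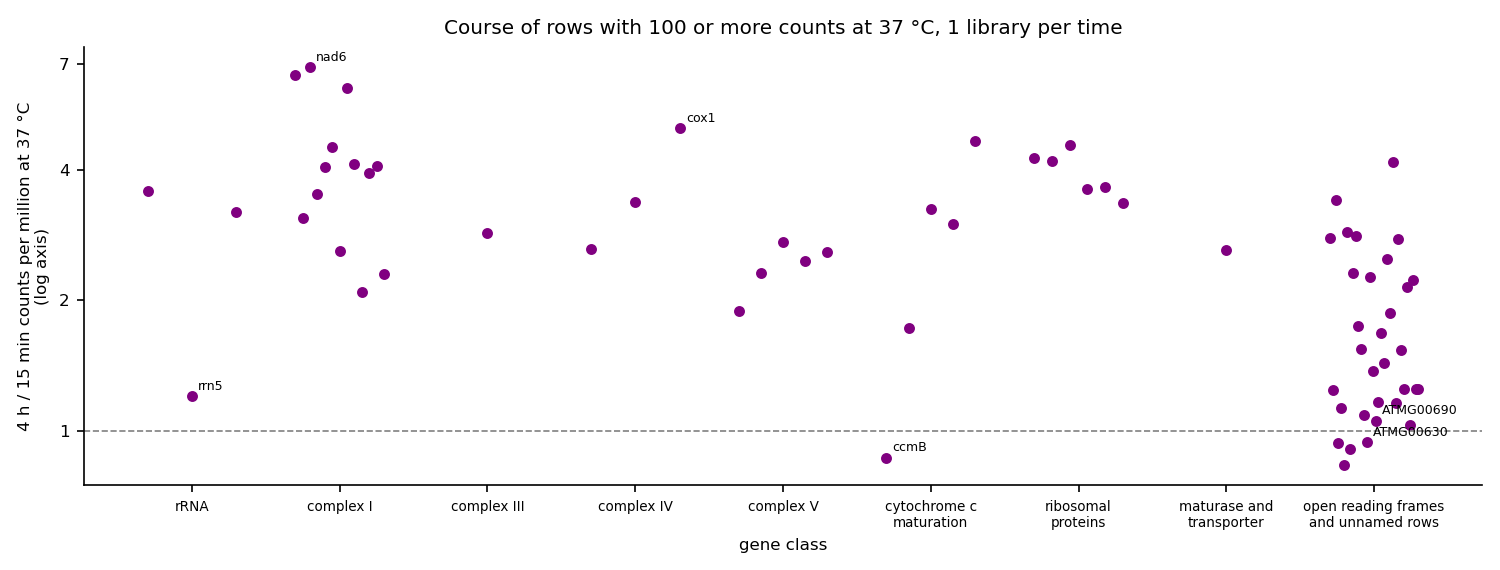
Ratio of CPM at 4 h to those at 15 min, both at 37 °C (log axis), for the 69 rows with at least 100 counts at 37 °C, by class. Named subunits of the complexes and ribosome lie between 1.89 and 6.91, while ccmB at 0.866, rrn5 at 1.20 and many unnamed rows lie near 1.

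Per length, the order of the protein-coding and unnamed rows changed with heat. By TPM, which corrects for length, ATMG00030 had the highest median at both temperatures, with 29.5, 28.9 and 41.4 TPM at 17 °C and 90.7, 152 and 195 TPM at 37 °C. At 17 °C atp9 came next, at 4.17, 5.87 and 5.14 TPM, and the next rows lay close together, with ATMG00660 at a median of 2.27, rpl16 at 2.01 and atp1 at 1.97 TPM, which the spread over the 3 libraries does not separate. At 37 °C the next median was that of ATMG00690, with 139, 183 and 145 TPM from 0.991, 0.728 and 0.578 TPM in its controls, where its rank by median was 15. It stood above ATMG00030 at 15 min and 1 h, and at 4 h below it and below rpl16 (151 TPM) and atp9 (149.9 TPM). The next rows at 37 °C by median were rpl16 at 102, atp9 at 85.2 and atp1 at 76.7 TPM. The rRNA rows reached 676 TPM (rrn26), 774 TPM (rrn18) and 1406 TPM (rrn5) at 4 h.

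At 27 °C no member passed the test. The fit over the 3 times of the 17-to-27 experiment tested 31 rows and called 0, with 0 at an unadjusted p under 0.05 and 0 by DESeq2, while edgeR called 1.51% of all genes (0.927% higher and 0.586% lower). All 128 members with a count had overlapping libraries at the 2 temperatures, while 0.417% of all rows lay above and 0.477% below without overlap. This overlap decides nothing about temperature, because the mitochondrial share differed widely between libraries of 1 temperature. At 1 h it was 0.551% and 0.018% at 17 °C, and 0.571% and 0.016% at 27 °C. Of the 60 rows with at least 10 control counts, 1 was over 2-fold higher and 4 were under 0.5 times, against 1.89% and 3.16% of all rows. Those 4 were rps7 (11 control counts against 5), ATMG00200 (23 against 10), ATMG01210 (18 against 4) and ATMG01330 (60 against 23). The 17 °C library numbered 1 at 1 h held 10 of the 11 rps7 counts, 19 of the 23 and 12 of the 18. Without both 1 h libraries numbered 1, rps7 had 1 control count against 4, ATMG00200 had 4 against 4, ATMG01210 had 6 against 3 and ATMG01330 had 40 against 17.

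The row over 2-fold higher was atp9, with 162 counts in 6 controls and 392 in 6 libraries at 27 °C. In CPM it lay at 2.29 and 0.706 (15 min), 6.61 and 0.608 (1 h) and 0.927 and 0.456 (4 h) at 17 °C for the libraries numbered 1 and 2. At 27 °C it lay at 2.29 and 0.367, 20.2 and 1.11, and 3.06 and 1.56. The log2 fold change was 1.20 ± 0.86 (adjusted p = 0.505). The 1 h library numbered 1, which stands apart in its organelle counts, held 230 of the 392. Without both 1 h libraries numbered 1 the counts were 99 and 162, a ratio of 1.79 in place of 2.57.

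Named subunits at 27 °C lay near their controls with wide errors. The log2 fold changes were -0.22 ± 1.03 for atp1 (908 control counts), 0.29 ± 1.07 for cox1 (752), 0.01 ± 1.02 for cox2 (194), 0.08 ± 0.99 for cox3 (237), -0.58 ± 1.08 for cob (291) and 0.16 ± 1.02 for nad7 (189). The rRNA changes were 0.08 ± 0.99 for rrn26 (52193) and 0.18 ± 0.95 for rrn18 (30688). These errors include the spread between libraries numbered 1 and 2. Blocking on replicate number inside each time gave smaller errors, with log2 fold changes of 0.04 ± 0.20 for rrn26, 0.08 ± 0.19 for rrn18, -0.24 ± 0.16 for atp1, 0.15 ± 0.18 for cox1 and -0.68 ± 0.33 for cob (adjusted p = 0.263). That fit tested 47 members and called 0, with 1 at an unadjusted p under 0.05 (atp9, 0.97 ± 0.33, adjusted p = 0.123), while it called 2.61% of all genes.

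At the single times 57 rows were tested at each time and 0 were called by edgeR or DESeq2, with 0 at an unadjusted p under 0.05. The background was 0.218% of all genes at 15 min (0.213% higher and 0.00463% lower), 0.842% at 1 h (0.449% and 0.393%) and 0.0324% at 4 h (0.0278% and 0.00463%). When the fit held replicate number as a block within each time, 1 member was called at 1 h, atp9, with a log2 fold change of 1.57 ± 0.35 (72 control counts against 243, adjusted p = 0.027).

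From 22 °C to 27 °C the rRNAs lay lower in every shifted library, and no member passed the test. The rrn18 row held 763, 970 and 637 counts at 22 °C and 375, 383 and 487 at 27 °C. The rrn26 row held 1042, 1342 and 753 counts at 22 °C and 513, 628 and 656 at 27 °C, in libraries of 9.16, 10.65 and 5.79 M counts and 6.28, 6.58 and 5.87 M counts. In CPM all 3 libraries at 27 °C lay below all 3 controls for both, and for rrn5 too (20 control counts against 9). The log2 fold changes were -0.47 ± 0.13 for rrn18 (adjusted p = 0.163) and -0.33 ± 0.13 for rrn26 (adjusted p = 0.28), and neither passed.

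Over all members of the 22-to-27 experiment 7 lay below without overlap and 1 above, where 7.28% and 3.62% of all rows with a count did, so the members' share is near the background. The 1 above was rps4, with 1 control count against 3. Below with the rRNAs were ATMG00670 (24 control counts against 6), ATMG00130 and ATMG01210 (6 against 1 each) and ATMG00620 (4 against 0). Of the 6 rows deep enough to test, 0 were called by edgeR or DESeq2 and 2 had an unadjusted p under 0.05, while 0.31% of all genes were called (0.257% higher and 0.0525% lower). Rows outside the rRNAs made up 19.7%, 20.4% and 23.9% of mitochondrial counts at 27 °C and 16.4%, 17.5% and 16.2% at 22 °C. These were 218, 261 and 360 counts and 356, 493 and 270 counts.

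The effect of 37 °C was larger than that of 27 °C for 56 members and smaller for 0, by a test of the difference over both experiments, where 6.4% of all 21778 genes had a larger and 9.43% a smaller effect (15.8% in all). The fit tested 98 rows, of which 61 had a control library over the filter, and 41 of these 61 passed. That library could be of the 17-to-27 experiment alone. For ccmC it was the 17 °C library numbered 1 at 1 h, with 6 counts, while its 17 °C controls in the 17-to-37 experiment held 0. In the fit of 37 °C against 17 °C, 23 rows had a control library over the filter. By class 34 of 58 tested open reading frames and unnamed rows passed, 5 of 14 rows of complex I, 0 of 1 of complex III, 1 of 3 of complex IV and 2 of 5 of complex V. So did 5 of 5 of cytochrome c maturation, 7 of 7 ribosomal proteins, 1 of 3 rRNAs and 1 of 2 among matR and mttB. These class counts include rows without a control library over the filter.

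Among the named genes, the difference in log2 fold change was 5.72 ± 1.66 for atp1 (1050 control counts over both experiments, adjusted p = 0.0357) and 5.56 ± 1.55 for cox2 (231, adjusted p = 0.0304). It was 4.82 ± 1.74 for cox1 (839, adjusted p = 0.0792), 3.14 ± 1.54 for rrn18 (36131, adjusted p = 0.186) and 2.52 ± 1.59 for rrn26 (62927, adjusted p = 0.304), which did not pass. For rps4 the difference was 7.39 ± 1.63 (64 control counts) and for ccmB 5.94 ± 0.79 (29). Their 17 °C controls in the 17-to-37 experiment held 1, 0 and 4 counts (rps4) and 6, 3 and 2 (ccmB), all under the filter. Tests of these rows are therefore not given. Of the rps4 control counts, 36 lay in the 17 °C library numbered 1 at 1 h. Leaving out the 15 min, 1 h or 4 h libraries left 14, 31 and 6 members, and leaving out both 1 h libraries numbered 1 gave 62.

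Without a move no member passed the test over the morning. Between 15 min and 4 h in seedlings kept at 17 or 22 °C, 31 members were tested and 0 were called by edgeR or DESeq2, with 0 at an unadjusted p under 0.05, while 26.5% of all genes were called (12.4% higher and 14.1% lower). The log2 fold changes ran from -1.73 to 0.11. The rRNA rrn26 had 23648 counts at 15 min and 7952 at 4 h (-0.20 ± 1.07), and rrn18 had 13074 and 4354 (-0.20 ± 1.07).

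The chromosome 2 rows in the stretch that holds the inserted copy also stood higher at 37 °C. Their 136 rows held 39.6, 41.2 and 42.3 CPM in the 17 °C libraries at 15 min, 1 h and 4 h and 723, 1025 and 1400 at 37 °C, a ratio of means of 25.6. Per library they held between 0.534 and 1.57 times the counts of the mitochondrial rows outside the rRNAs. How reads that match both places were counted is not given in the sources used here, so a read of either origin may stand in either set.

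Nuclear genes for mitochondrial proteins moved far less. A list of 49 nuclear genes was set beside the members: 3 organelle RNA polymerases, 10 factors of mitochondrial RNA editing, splicing and decay, and 36 subunits of complexes I to V with cytochrome c. At 37 °C 18 of the 49 were higher and 1 lower, with a median log2 fold change of 0.41 beside 0.00 for all genes tested, of which 9.91% were higher and 11.3% lower. At 27 °C in the 17-to-27 experiment 0 of 49 passed by edgeR and 0 by DESeq2, with 3 at an unadjusted p under 0.05 and a median of 0.02.

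By group, at 37 °C 8 of 13 complex I subunits, 4 of 9 of complex III and cytochrome c and 5 of 8 of complex V were higher. The cytochrome c gene CYTC-2 (AT4G10040), which encodes the electron carrier between complexes III and IV, had 2666 control counts and 4078 at 37 °C (log2 fold change 1.02 ± 0.23, adjusted p = 0.0377). In the complex V list AT5G08670 had 24800 and 32296 counts (0.73 ± 0.12, adjusted p = 0.0191). The 1 lower gene was AT3G15640 of the complex IV list, with 3593 control counts and 1014 at 37 °C (-1.62 ± 0.27, adjusted p = 0.0208).

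The 3 organelle RNA polymerases did not pass at 37 °C. The polymerase gene MGP3 (AT1G68990) had 2633 control counts and 1763 at 37 °C, a log2 fold change of -0.20 ± 0.12 (adjusted p = 0.253). The row AT5G15700 had 737 and 565 counts (-0.13 ± 0.25, adjusted p = 0.722). Of the 10 factors for RNA editing, splicing and decay, 1 was higher, the RNA editing factor MORF1 (AT4G20020), with 1801 control counts and 2608 at 37 °C (0.83 ± 0.21, adjusted p = 0.047).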

How the data were processed

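Total RNA from whole Col0 seedlings was sequenced in 27 libraries that fall into 21 groups by experiment, temperature and time. The deposited tables hold 33557 rows per library with raw counts, FPKM and TPM. Counts per gene, FPKM and TPM were made by the authors; FastQC, Trimmomatic, TopHat, Picard and the build TAIR10 are named in the submitters' processing notes. The deposited TPM equal the deposited FPKM rescaled to a common total. The counting tool and its handling of strand and of reads with several matches were not given in the sources used here. Of 3942 member values, 379 had a count with a TPM of 0 and 87 a TPM without a count. Depth was 6.4 to 30.74 M counts in the 17-to-27 experiment, 15.3 to 22.48 M in the 17-to-37 experiment and 5.79 to 10.69 M in the 22-to-27 experiment.

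Members and gene lists were chosen with earlier results of these data known. Rows were named by matching their lengths and spacing to the RefSeq TAIR10.1 mitochondrial annotation, which is another mitochondrial assembly. Of the 59 names, 46 came from length and spacing, 11 from overlap near a matched row, 1 from equal length alone and 1 from a note on a nuclear copy. Such notes gave the same name for 14 rows and another for 0.

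Counts were tested with edgeR 4.0.16 (R 4.3.3), using TMM scaling, a filter on low counts and the quasi-likelihood test, with p-values adjusted by Benjamini-Hochberg over all genes tested at a threshold of 0.05. The script was tested on simulated data. Fits over the 3 times had time as a term, and the effects of 37 °C and 27 °C were compared by an interaction. Ratios are of CPM (counts per M of the library's total) pooled over libraries. Where the controls held 0 counts, the ratio is a lower bound against 3 counts over the group, and with 1 to 3 counts it has an exact 95% interval for counting error. Alternatives were DESeq2 1.42.0, RLE scaling, no filter, scaling on nuclear genes, the replicate number as a block, and leaving out libraries or times. Replicate numbers in the labels were checked for pairing: deviations of libraries with the same number correlated at 0.448, 0.572 and 0.484 (15 min, 1 h and 4 h, 21119 genes), which pairs same-numbered libraries of 1 time. The 0 min library of the 17-to-27 experiment has conflicting replicate labels and entered no comparison by number.

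Named in the text are all members past a test if 10 or fewer, otherwise the 5 highest and 5 lowest changes past it, the member of each class with the highest median TPM (tied at 0 for tRNAs, where trnK was taken as the first row), and nad7, nad9, cob, cox1 to cox3, atp1, atp6, atp9, ccmB, rps4, rpl2, rpl16, matR and the rRNAs. Other names were chosen after their values were seen, among them ATMG00690, nad6, nad4, atp4, atp8, rps3, rpl5, mttB and the other rows of cytochrome c maturation.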

Additional observations from a re-analysis of the deposited data

Results flagged for a closer look

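The effects of the moves to 37 °C and to 27 °C differed by the test of the difference for 56 members, all with the larger effect at 37 °C, and for 0 in the other direction. The differences in log2 fold change named here rest on few control libraries per temperature and time, and for 37 of the 98 members tested no control library was over the filter.

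Among ribosomal proteins the difference was 7.39 for rps4 (64 control counts over both experiments), 6.21 for rpl16 (175) and 5.49 for rpl2 (136). It was 5.94 for ccmB (29) and 8.37 for ccmC (11), both of cytochrome c maturation. In the respiratory complexes it was 5.72 for atp1 (1050) and 5.56 for cox2 (231). For the maturase matR it was 4.83 (223), and for the 5S rRNA rrn5 4.19 (68). In the experiment with the hottest move, the control libraries of rps4, ccmB and ccmC were all under the filter on low counts. The values of rps4, ccmB and ccmC are therefore a description and no support.

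Among the unnamed rows, 5 had no control library over the filter on low counts and entered the test through their level at 37 °C, so their values are a description and no support: 9.86 (ATMG00630, 1 control count), 9.07 (ATMG00450, 5), 8.94 (ATMG00130, 2), 8.59 (ATMG00940, 4) and 3.97 (ATMG00590, 19). Rows with control libraries over the filter had 4.82 (ATMG01170, 144), 4.33 (ATMG00660, 151) and 4.25 (ATMG01330, 75). For ATMG01330 these control libraries were of the 17-to-27 experiment alone. No explanation of these differences was tested.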

How the results depend on the processing

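For 37 °C against 17 °C the count of members called higher was 98 with edgeR, DESeq2, RLE scaling or scaling on nuclear genes and 102 with no filter. In the main fit 9.91% of all genes were called higher. Of the 98 members, 75 had no control library over the filter, so the steadiness of this count is no support. Leaving out 1 time gave 39 to 98, the lowest without 1 h. For the difference between the effects of 37 °C and 27 °C the count was 56, with 74 by DESeq2, 44 with no filter and 62 without both chloroplast-rich 1 h libraries. In its main fit 6.4% of all genes had a larger effect at 37 °C, and 37 of the members tested had no control library over the filter. Leaving out 1 time gave 6 to 31 there (14 without 15 min, 31 without 1 h and 6 without 4 h), where fewer libraries were fitted. With a replicate block that difference was called for 77 members, and with the replicate block within each time for 78. At 1 h, 27 °C against 17 °C gave 0 members without the block and 1 with the replicate block within each time. The replicate block changed no other count of members. All other comparisons had 0 members called, and 0 under each alternative run, leaving out single libraries included. Rows with few control counts limit every fold change named here, and the 22-to-27 libraries were deep enough to test 6 members.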
